A study of Mus musculus with 9 samples.

Results

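The genes of oxidative phosphorylation were examined in the medial ganglionic eminence (MGE) of the mouse, the ventral forebrain region where many cortical interneurons are born, after conditional loss of Ctnnb1, which encodes β-catenin. Members were the protein-coding genes whose symbols name a subunit of respiratory complexes I to V or a protein that shares those symbols, in the nuclear and in the mitochondrial genome. The rule took 107 of the 48526 genes in the table, 94 nuclear and 13 mitochondrially encoded, and 11 pseudogenes and noncoding genes with matching symbols were left out. Complex I held 43 members, complex II 4, complex III 10, complex IV 23 and complex V 19, and 8 further members were the complex I assembly factors named Ndufaf. The rule used gene symbols and no expression value, but it was chosen with earlier results of these data known. RNA sequencing covered 9 libraries of C57BL/6 embryos at embryonic day 14.5, all with the genotype Nkx2.1-cre and Rosa26-YFP, in which Cre recombinase is made where the Nkx2-1 promoter is or was active and a reporter allele gives yellow fluorescence. Controls 1 to 3 carried no floxed allele, control 4 was Ctnnb1fl/wt, and knockouts 1 to 5 were Ctnnb1fl/fl. Deletion can therefore reach only cells that have made this Cre, while other cells of the tissue keep their alleles. Per the labels, either MGE cells were collected or the MGE was dissected out, without saying which for a library, and whether libraries came from separate embryos is not stated, so p-values reflect library-to-library spread only, part of which may be technical.

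Oxidative phosphorylation passes electrons from NADH through complex I, or from succinate through complex II, to coenzyme Q, complex III, cytochrome c and complex IV, where oxygen is reduced. Complexes I, III and IV pump protons across the inner mitochondrial membrane, and complex V, the ATP synthase, uses the return flow to make ATP. Most subunits are encoded in the nucleus and imported, while a small set of core subunits is encoded by mitochondrial DNA, so each complex except complex II is built from both genomes. Dividing neural progenitors rely heavily on glycolysis, and neurons draw more on oxidative phosphorylation as they mature.

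Reads assigned to genes, recovered from the normalized values, totalled between 5120585 and 5569444 per library. Ctnnb1 itself averaged 9828 ± 197 normalized counts (SD, n = 4) in controls and 6789 ± 828 (SD, n = 5) in knockouts, which is 69.1% of control (log2 fold change -0.54, SE 0.10, limma adjusted p = 0.000811; exact two-sided permutation p = 0.00794). All 8 MGE and interneuron markers were detected, with summed levels of 18320 to 31181 in controls and 28508 to 36100 in knockouts. Of these 8, 5 rose and 0 fell (limma adjusted p under 0.05), where 17.2% of all genes rose. Markers of dividing cells fell in 7 of 7 cases, where 17.3% of all genes fell, and markers of neurons rose in 6 of 6 cases. The groups thus also differed in markers of these cell states. In bulk RNA, fewer cells of a type and less RNA per cell cannot be told apart. Control 1 stood apart in other cell markers: its 7 dorsal telencephalic markers summed to 2383 normalized counts against 40.9 to 482 in the other 8 libraries, and its 5 choroid plexus markers to 2809 against 23.1 to 417. No marker in any of these lists was at 0 in every library.

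No member rose and 7 of the 95 tested members fell in the knockouts. The fallen members were Ndufb6, Ndufa12 and Ndufaf4 of complex I and its assembly, Sdha of complex II, Cyc1 of complex III, Cox6b2 of complex IV and Atp5b of complex V. The 7 are 7.37% of the tested members, whereas 34.5% of all 13780 genes tested were called, 17.2% as higher and 17.3% as lower (limma, Benjamini-Hochberg adjusted p under 0.05). The share among members lay below this background, which shows no excess of calls. Among genes averaging 100 to 2500 normalized counts, 6.85% of 73 members and 41.3% of all genes were called. Changes were small. Only Cox6b2 had a log2 fold change beyond 0.5 in either direction, 1.05% of the tested members against 27.0% of all genes. For 64 of 95 members the 95% interval of the log2 fold change lay within 0.5 of 0 on both sides, and for 93 it lay within 1. The other 12 members were below a mean of 10 normalized counts, 6 nuclear and 6 mitochondrial, and were not tested.

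Small differences nevertheless leaned to 1 side. The fitted log2 fold change was below 0 for 81 of 95 members, 85.3% against 51.0% of all genes, with a median of -0.13 for nuclear and -0.19 for mitochondrially encoded members against -0.01 for all genes. Every knockout lay below every control for 4 members, Sdha, Cyc1, Cox6b2 and Atp5b, where 14.6% of all genes did so. The opposite held for 1 member, Cox7a2l, where 14.5% of all genes did so. This lean was smaller without control 1 or 4, the libraries in which most members were highest. Leaving out the highest controls shrinks such a difference by construction. Without control 1 the nuclear median was -0.05 and the mitochondrial median -0.11, and without control 4 they were -0.11 and -0.11, with 2 members called in each case (Sdha and Cox6b2). Without control 2, in contrast, 12 members were called lower. With controls 2 and 3 as the only controls, a setting chosen after seeing the data, the medians were 0.01 and 0.06 and 1 member, Sdha, was called, while 1370 of all genes were called higher and 1108 lower.

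**Figure D1:**
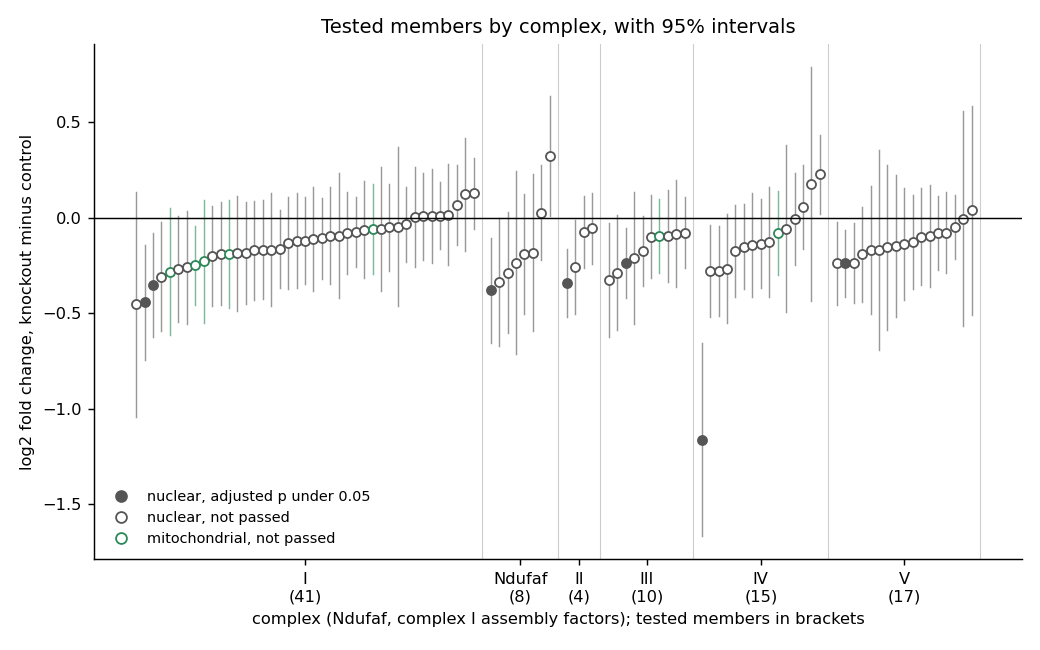
Log2 fold change, knockout minus control, with its 95% interval for each of the 95 tested members, ordered within complexes I to V and the Ndufaf assembly factors (number tested in brackets on the horizontal axis). Filled points are the 7 members that fell, open points did not pass, and green marks the 7 mitochondrially encoded members; Cox6b2 lies apart at -1.16.

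Complex I, the NADH dehydrogenase, had 41 of 43 members tested, of which 2 fell and none rose, with a median of -0.12. Its 7 nuclear core subunits, which carry the flavin and iron-sulfur centres, all had intervals within 0.5 of 0 and a median of -0.06, and none was called. Both called members were among the 29 supernumerary subunits, which surround the core and are needed for its assembly and stability. Ndufb6 (ENSMUSG00000071014, mm10 chr4:40270591-40279421), of the membrane arm, was at 369, 218, 259 and 316 normalized counts in controls 1 to 4 and at 223, 237, 217, 189 and 185 in knockouts 1 to 5. Controls 1 and 4 were the highest, and control 2 lay within the knockout range. Its log2 fold change was -0.44 (SE 0.14, limma adjusted p = 0.0254). The call was lost without control 1 or 4 and without knockout 4 or 5 (adjusted p from 0.0503 to 0.0880). Ndufa12 (ENSMUSG00000020022, chr10:94198720-94221443), of the matrix arm, was at 292, 218, 207 and 294 in controls and at 223, 201, 185, 193 and 177 in knockouts. Here too controls 1 and 4 were high, and controls 2 and 3 lay within the knockout range. The log2 fold change was -0.35 (SE 0.13, limma adjusted p = 0.0436), and the call was lost without control 1, control 4 or any of knockouts 2 to 5 (adjusted p from 0.0545 to 0.148). For both genes the counts are uncertain, since 34.1% of the 50-base windows of Ndufb6 transcripts and 26.2% of those of Ndufa12 also occur in another annotated gene.

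Ndufaf proteins help to build complex I and are not part of it. Of the 8, 1 fell: Ndufaf4 (ENSMUSG00000028261, chr4:24898083-24905001) was at 198, 159, 164 and 205 in controls and at 147, 166, 137, 122 and 124 in knockouts. Knockout 2 lay above controls 2 and 3, so the groups overlapped. The log2 fold change was -0.38 (SE 0.13, limma adjusted p = 0.0331), and the call was lost without control 1, control 4 or any of knockouts 3 to 5 (adjusted p from 0.0594 to 0.110). Ndufaf3, singled out after its values were seen as the highest member, was at 130, 123, 128 and 137 in controls and at 165, 149, 224, 123 and 164 in knockouts. It did not pass (log2 fold change 0.32, SE 0.15, limma adjusted p = 0.101), but did without knockout 4, its lowest knockout.

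Complex II, the succinate dehydrogenase, also belongs to the citric acid cycle and is encoded wholly in the nucleus. Sdha (ENSMUSG00000021577, chr13:74322254-74350280), its flavoprotein subunit, was at 1554, 1528, 1514 and 1584 normalized counts in controls and at 1282, 1262, 1329, 1166 and 1072 in knockouts. The 4 controls lay close together and above all 5 knockouts. Means were 1545 ± 31.0 (SD, n = 4) and 1222 ± 103 (SD, n = 5), and the log2 fold change -0.34 (SE 0.08, limma adjusted p = 0.00631). Sdha kept its call in all 21 alternative analyses, with an adjusted p of at most 0.0437, and was the only member to do so. The iron-sulfur subunit Sdhb and the membrane anchors Sdhc and Sdhd did not pass, with log2 fold changes of -0.06, -0.07 and -0.26. Whether Sdha differed from these was not tested.

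Complex III, the cytochrome bc1 complex, had all 10 members tested, and all 10 fitted values lay below 0, with a median of -0.14. Cyc1 (ENSMUSG00000022551, chr15:76343523-76346260), the heme-bearing cytochrome c1, fell. It was at 950, 909, 935 and 958 in controls and at 816, 811, 852, 684 and 827 in knockouts. No knockout reached the lowest control. The log2 fold change was -0.24 (SE 0.09, limma adjusted p = 0.0426), close to the threshold. Leaving out any 1 library other than knockouts 3 and 5 ended the call (adjusted p from 0.0563 to 0.109).

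Complex IV, cytochrome c oxidase, had 15 of 23 members tested, of which 1 fell. Cox6b2 (ENSMUSG00000051811, chr7:4751792-4753094), known as the testis isoform of subunit 6B, was at 49.5, 31.8, 32.2 and 40.9 in controls and at 10.9, 17.3, 18.1, 19.1 and 18.1 in knockouts. Every knockout lay below every control. Means were 38.6 ± 8.42 (SD, n = 4) and 16.7 ± 3.32 (SD, n = 5), and the log2 fold change -1.16 (SE 0.24, limma adjusted p = 0.00198). The call held without any 1 library and was missed with controls 2 and 3 as the only controls (adjusted p = 0.0509). Its common counterpart Cox6b1 was at 683 to 1032 in controls and 774 to 927 in knockouts, and its log2 fold change was -0.01 (SE 0.11, limma adjusted p = 0.972). Per kb of transcript, control libraries averaged 88.7 normalized counts for Cox6b2 and 1746 for Cox6b1, so the isoform that fell was the minor one.

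The other isoforms tied to muscle, lung or testis were near 0 in both groups. Cox4i2, which replaces Cox4i1 in lung, ranged from 1.91 to 9.04 normalized counts over the 9 libraries. Cox7a1 ranged from 0 to 4.81 and Cox6a2, both heart and skeletal muscle forms, from 0 to 1.98. Cox8b and Cox8c reached at most 0.993 and 0.989, and Cox7b2 was at 0 throughout. Summed markers of muscle were also low, at 14.1 to 76.8 in controls and 28.1 to 94.7 in knockouts. The common forms carried the signal: Cox4i1 was at 1600 to 2198 in controls, Cox6a1 at 1055 to 1381, Cox7a2 at 528 to 771, Cox7b at 349 to 507 and Cox8a at 704 to 1045. None of these common forms passed, with log2 fold changes from -0.28 for Cox7b and Cox8a to 0.06 for Cox4i1. Cox7a2l, named after its values were seen as the 1 member with every knockout above every control, helps to join complexes III and IV into supercomplexes. It was at 520, 481, 516 and 405 in controls and at 543, 533, 562, 538 and 632 in knockouts (log2 fold change 0.23, SE 0.10, limma adjusted p = 0.080), a difference that did not pass.

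Complex V, the ATP synthase, had all 17 nuclear members tested, of which 1 fell, with a median of -0.14. Its catalytic F1 sector had a median of 2181 normalized counts per kb in controls against 532 for all nuclear members. Atp5b (ENSMUSG00000025393, chr10:128083273-128090391), the catalytic β subunit, was the highest nuclear member at 3830 per kb. It was at 7413, 7003, 6985 and 7952 normalized counts in controls and at 6428, 6251, 6781, 5834 and 5833 in knockouts. Every knockout lay below every control, with knockout 3 closest to them. The log2 fold change was -0.24 (SE 0.08, limma adjusted p = 0.0365), and the call was lost without control 1, control 4 or any knockout other than knockout 3 (adjusted p from 0.0541 to 0.124).

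**Figure D2:**
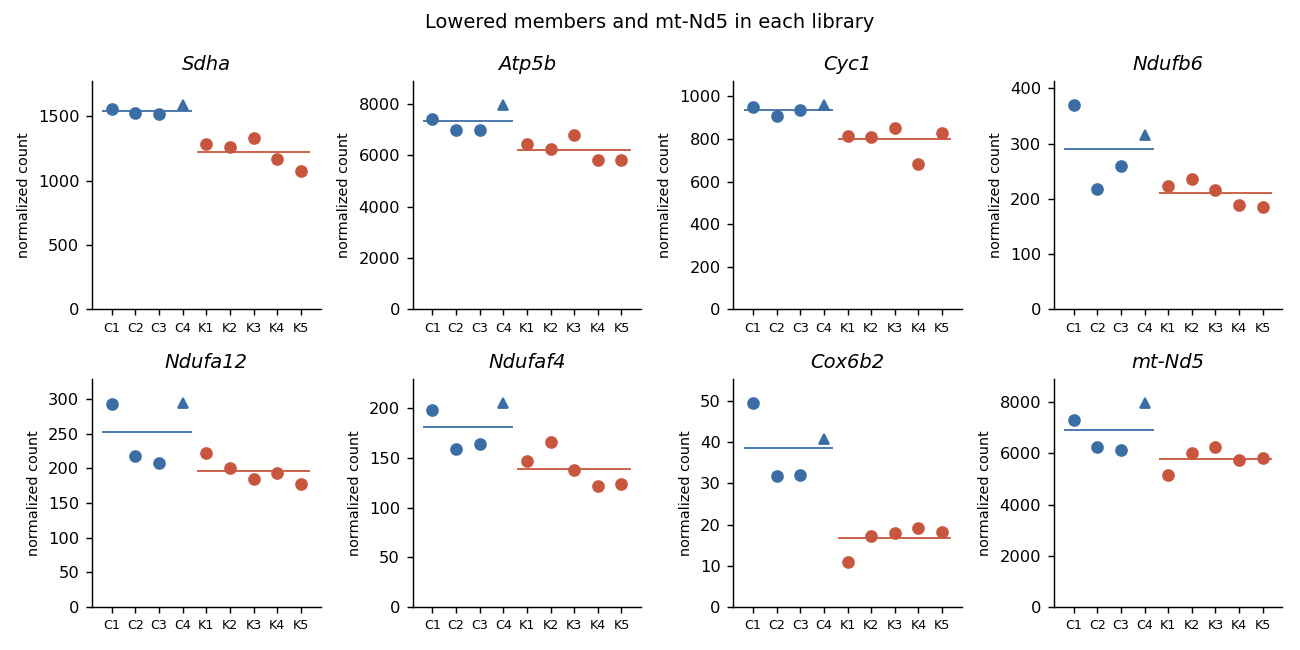
Normalized count (vertical axis, from 0) of the 7 members that fell and of mt-Nd5, which did not pass, in controls C1 to C4 (blue; the triangle is the Ctnnb1fl/wt control) and knockouts K1 to K5 (red), with lines at the group means. Sdha, Atp5b, Cyc1 and Cox6b2 show no overlap between groups, whereas C2 and C3 approach or enter the knockout range for Ndufb6, Ndufa12 and Ndufaf4.

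Mitochondrial DNA encodes 7 subunits of complex I, cytochrome b of complex III, 3 subunits of complex IV and 2 of complex V. The deposited values split these 13 members into 7 at high levels and 6 at or near 0. From mt-Co2 to mt-Nd4l (chrM:7013-10173), mt-Co2 and mt-Co3 were at 0 to 2.99 and 0 to 3.96, mt-Atp6 at 0 to 4.02, mt-Nd3 and mt-Atp8 each at 0 in 8 of 9 libraries, and mt-Nd4l at 0 throughout. Their neighbours mt-Co1 and mt-Nd4 stood at 21131 to 29716 and 4210 to 5796. A stretch of chromosome 1 annotated with unprocessed pseudogenes matches this block. Over the annotated length compared, mt-Co2, mt-Atp6, mt-Co3 and mt-Nd4l had 0 differences from their chromosome 1 copies in 681, 678, 783 and 294 bases, and mt-Nd3 had 1 in 345. The sequences below, bases 298 to 387 of each transcript in lower case, are shown because they make this concrete: the first pair, chrM:7310-7399 (+) and chr1:24615179-24615268 (-), are the same, and the third, chrM:3048-3137 (+), has no annotated copy.
mt-Co2: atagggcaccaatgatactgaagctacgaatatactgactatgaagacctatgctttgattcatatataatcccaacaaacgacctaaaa
Gm28661: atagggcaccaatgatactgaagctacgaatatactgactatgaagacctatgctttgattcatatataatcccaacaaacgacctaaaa
mt-Nd1: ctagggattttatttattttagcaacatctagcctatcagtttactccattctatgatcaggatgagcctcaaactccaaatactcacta

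Of the 50-base windows of the near-0 members, 100% were shared with another annotated gene for mt-Co2, 99.9% for mt-Co3, 99.5% for mt-Atp6, 98.8% for mt-Nd4l and 98.0% for mt-Nd3. The exception was mt-Atp8, with 0%, for which that stretch has no annotated copy. Only annotated transcripts were searched, so an unannotated copy of mt-Atp8 there would not be counted. Shares were lower for mt-Nd4 at 62.2%, mt-Co1 at 51.1%, mt-Nd2 at 8.19% and mt-Nd5 at 7.61%, and 0% for mt-Nd1, mt-Nd6 and mt-Cytb. The annotated copies were themselves at 0 to 11.1 normalized counts, so neither place held a high count. How reads with several matches were treated is not given in the sources used here, and the cause of the near-0 values was not tested. The 6 values were not read as transcript levels, and the levels of mt-Nd4 and mt-Co1 are uncertain.

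**Figure D3:**
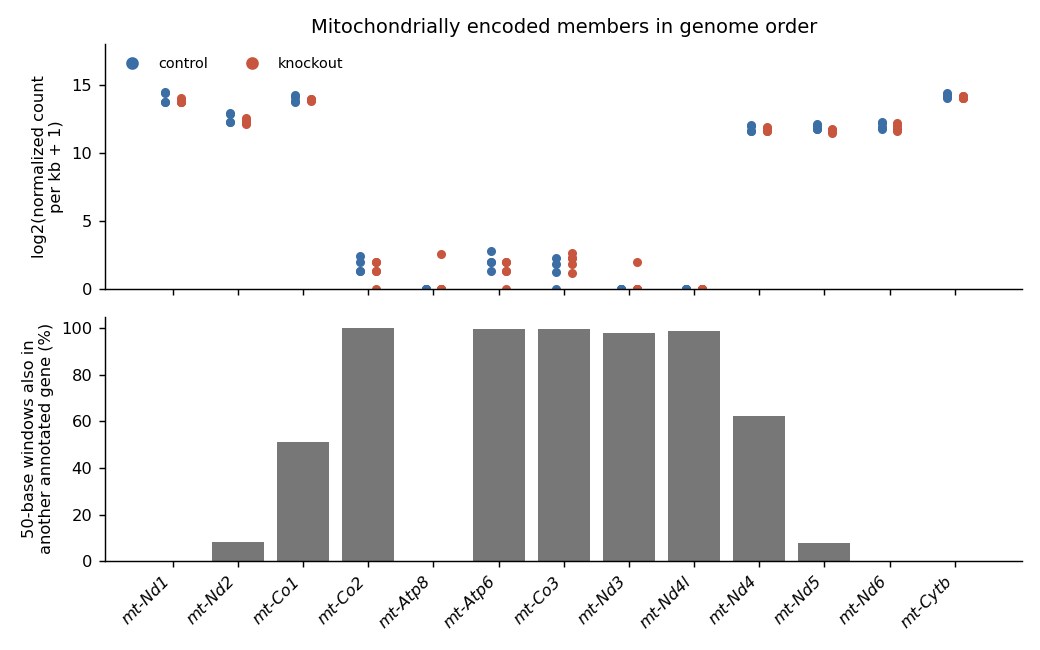
The 13 mitochondrially encoded members in genome order: above, log2(normalized count per kb of transcript + 1) in each control (blue) and knockout (red) library; below, percent of each transcript's 50-base windows that also occur in another annotated gene. The 6 members from mt-Co2 to mt-Nd4l lie near 0, and 5 of them have shares of 98.0% or more.

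The 7 measurable members ranged from 3592 normalized counts per kb for mt-Nd4 to 18703 for mt-Cytb in controls, and none was called. Among nuclear members only Atp5b, at 3830 per kb, reached this range. The NADH dehydrogenase subunit mt-Nd5 came closest. It was at 7308, 6244, 6148 and 7966 in controls and at 5170, 6012, 6254, 5733 and 5813 in knockouts, and knockout 3 lay above controls 2 and 3. Its log2 fold change was -0.25 (SE 0.10, limma adjusted p = 0.0573). The other complex I subunits had log2 fold changes of -0.28 for mt-Nd1, -0.23 for mt-Nd2, -0.19 for mt-Nd6 and -0.06 for mt-Nd4. Values were -0.10 for cytochrome b, mt-Cytb, and -0.08 for mt-Co1, the catalytic subunit of complex IV. In mt-Nd1, controls 1 and 4 were at 20192 and 21914 normalized counts, above the other 7 libraries at 12869 to 16209. The library kit does not mark strand, so mt-Nd6, encoded on the opposite strand to the rest, cannot be told apart from antisense RNA.

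Both genomes showed the same libraries on top. The mitochondrially encoded members took 1.90% and 1.77% of the summed normalized counts in controls 1 and 4, 1.34% and 1.31% in controls 2 and 3, and 1.34% to 1.44% in knockouts. Nuclear members took 1.23% and 1.09% in controls 1 and 4, 0.953% and 0.968% in controls 2 and 3, and 0.875% to 1.02% in knockouts. Control 1 or 4 was the highest of the 9 libraries for 74 of 88 nuclear members (84.1%) and 7 of 7 mitochondrially encoded ones, against 33.4% of all genes. Relative to each gene's mean, the median nuclear member was at 0.34 and 0.16 on the log2 scale in controls 1 and 4, at -0.10 and -0.06 in controls 2 and 3, and from -0.20 to 0.08 in knockouts. For mitochondrially encoded members the medians were 0.29 and 0.35, then -0.16 and -0.17, and from -0.20 to 0.03 in knockouts. By these medians controls 2 and 3 lay within the knockout range for both genomes.

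Gene groups outside the respiratory chain were high in the same libraries. Cytosolic ribosomal proteins, whose transcripts are likewise short and abundant, had medians of 0.43 and 0.20 in controls 1 and 4, and 65 of 78 had their highest value there. Other protein-coding genes shorter than 1000 bases had medians of 0.26 and 0.10, and 57.3% of 716 were highest in control 1 or 4. Summed erythroid markers were at 9236 and 10988 in controls 1 and 4, at 2699 and 5449 in controls 2 and 3, and at 3217 to 7747 in knockouts. With a correction of each library for transcript length and GC content, the nuclear median was -0.02 and the mitochondrial median 0.12, with 4 members called lower (Sdha, Cyc1, Cox6b2, Atp5b) and 2 called higher (Cox7a2l, Ndufb10). The correction was fitted without the group labels, so it can also remove a group difference that follows length or GC content. Median GC content was 37.1% in tested mitochondrially encoded members and 50.4% in all genes tested. The part of transcript length, of the dorsal, choroid plexus and erythroid markers and of the floxed allele of control 4 in the lean of the members was not tested.

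**Figure D4:**
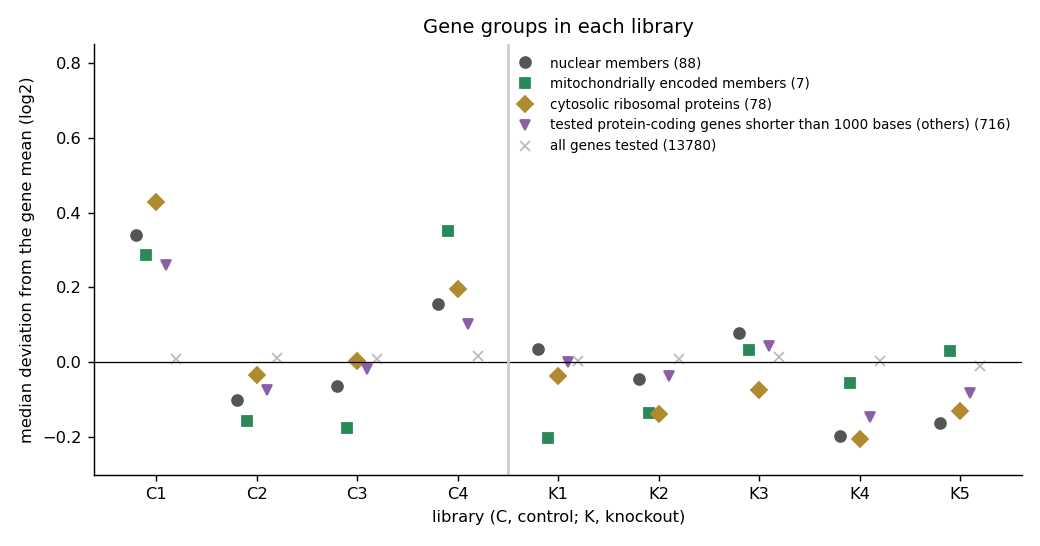
Median deviation from each gene's mean over the 9 libraries (log2, vertical axis) for nuclear members, mitochondrially encoded members, cytosolic ribosomal proteins, other short genes and all genes, by library. C1 and C4 are high for the first 4 groups, C2 and C3 lie within the range of the knockouts for both sets of members, and all genes stay near 0.

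Other genes that serve the respiratory chain were described from lists of known function, with the same limma test. Assembly factors showed no common direction. Of the complex III and complex IV factors, 33.3% and 18.2% were called, neither above the 34.5% of all genes. None of 8 further complex I factors, 4 complex II factors or 3 ATP synthase factors was called, with medians of -0.02, -0.15 and -0.08. For complex III, 1 of 6 rose and 1 fell: Ttc19, which clears fragments of the Rieske protein, was at 0.42 on the log2 fold change scale (SE 0.12, adjusted p = 0.0149), and Uqcc2, needed for cytochrome b synthesis, -0.39 (SE 0.14, adjusted p = 0.0433). For complex IV, 3 of 22 rose and 1 fell. The copper chaperone Cox17 rose by 0.71 (SE 0.20, adjusted p = 0.0145), Cox19 by 0.37 (SE 0.11, adjusted p = 0.0175) and the copper-site factor Sco1 by 0.43 (adjusted p = 0.0415), while Cmc2 was at -0.61 (SE 0.13, adjusted p = 0.00299). With controls 2 and 3 as the only controls, Cox19 and Cmc2 kept their calls (adjusted p = 0.0147 and 0.0420). Ttc19, Cox17 and Cmc2 kept theirs without any 1 library. Cox19 missed without control 2 or 3 (adjusted p = 0.0515 and 0.0563), Uqcc2 without control 1, control 4 or any of knockouts 2 to 5 (0.0627 to 0.147), and Sco1 without any 1 library other than control 2 and knockout 1 (0.0578 to 0.116).

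Genes upstream of the chain in metabolism included more that fell. Of 17 pyruvate dehydrogenase and citric acid cycle genes, 7 fell and none rose, 41.2% against the 17.3% of all genes that fell, with a median of -0.21. Suclg2, a subunit of GTP-forming succinyl-CoA synthetase, was at 127, 87.4, 116 and 124 normalized counts in controls and at 51.4, 58.7, 43.1, 73.7 and 31.2 in knockouts. All knockouts lay below all controls (log2 fold change -1.16, SE 0.22, adjusted p = 0.00113). Citrate synthase, Cs, which opens the cycle, was at 1774, 1775, 1894 and 1859 in controls and at 1503, 1556, 1433, 1411 and 1304 in knockouts. Its groups were separate too, with no excess in control 1 or 4 (log2 fold change -0.34, SE 0.08, adjusted p = 0.00479). Fumarase, Fh1, stood at -0.49 on the same scale (SE 0.12, adjusted p = 0.00556). With controls 2 and 3 as the only controls 2 of the 17 genes were called, Cs (adjusted p = 0.0233) and Suclg2 (adjusted p = 0.0313); without control 1 there were 5 and without control 4 there were 4. Suclg2, Cs and Fh1 were called without any 1 library.

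Among carriers and porins, 2 of 6 fell, where 17.3% of all genes did. Slc25a5, the adenine nucleotide translocase typical of dividing cells, which exchanges ATP for ADP, was at 1274, 972, 1093 and 1462 in controls and at 755, 797, 661, 613 and 502 in knockouts (log2 fold change -0.85, SE 0.14, adjusted p = 0.000739). All knockouts lay below all controls. Slc25a4, the translocase typical of heart, muscle and brain, was at 1991 to 2366 in controls and 2281 to 2640 in knockouts and did not pass (log2 fold change 0.16, SE 0.09, adjusted p = 0.160). The porin Vdac2 was at -0.28 (SE 0.10, adjusted p = 0.0401). Of 11 genes for coenzyme Q and cytochrome c, 2 fell, Coq7 and Coq5, at -0.42 and -0.32 (adjusted p = 0.0393 and 0.0411), a share of 18.2% that is near the background. Slc25a5 was called without any 1 library. Vdac2 missed without control 1, 3 or 4 or knockout 4 or 5 (adjusted p from 0.0618 to 0.122), Coq7 without those or knockout 3 (0.0564 to 0.118), and Coq5 without those or knockout 1 or 3 (0.0507 to 0.130).

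Among regulators of mitochondrial gene expression more genes fell than rose. Of 9 biogenesis regulators 4 fell and 1 rose, where 17.3% of all genes fell and 17.2% rose, and the list's median was -0.33. Pprc1, a coactivator of the PGC-1 family, was at 431, 380, 443 and 421 in controls and at 274, 287, 214, 319 and 248 in knockouts (log2 fold change -0.65, SE 0.11, adjusted p = 0.000757). Esrra, a nuclear receptor for energy metabolism genes, was at 155, 212, 221 and 187 in controls and at 281, 269, 296, 259 and 287 in knockouts (log2 fold change 0.53, SE 0.11, adjusted p = 0.00261). Both genes had separate groups and kept their calls with controls 2 and 3 as the only controls (adjusted p = 0.0135 and 0.0375). Gabpa, an ETS factor that acts at respiratory promoters, was at -0.33 (SE 0.10, adjusted p = 0.0219). Of 15 genes for mitochondrial DNA transcription and maintenance 4 fell (26.7%, against the same 17.3% of all genes) and none rose, with a median of -0.19, among them the nuclease Mgme1 at -0.89 (SE 0.17, adjusted p = 0.00145), the packaging and transcription factor Tfam at -0.36 (SE 0.10, adjusted p = 0.0138) and Tfb1m, a methyltransferase of mitochondrial ribosomal RNA, at -0.67 (SE 0.20, adjusted p = 0.0197). Pprc1, Esrra and Mgme1 were called without any 1 library. Gabpa missed without control 2 or 3 (adjusted p = 0.0508 and 0.0578), and Tfam and Tfb1m without control 4 (0.0532 and 0.0837). Without control 2 or 3 the lower biogenesis regulators numbered 1, and without knockout 3 they numbered 2. Without control 4 the lower genes of the mitochondrial DNA list numbered 1.

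Mitochondrial ribosomal proteins, which serve translation of the 13 mitochondrially encoded members, fell in 17 of 77 cases and rose in none, with a median of -0.23. The share of 22.1% is near the 17.3% of all genes that fell. Examples were Mrps14 at -0.55 (adjusted p = 0.00207), Mrps28 at -0.77 (adjusted p = 0.00443) and Mrpl33 at -0.53 (adjusted p = 0.00552). Cytosolic ribosomal proteins fell in 24 of 78 cases (30.8%), with a median of -0.27, led by Rps2 (-0.58), Rps27l (-0.57) and Rpl22l1 (-0.70). The list was taken by symbol and includes ribosomal protein-like genes such as Rps27l and Rpl22l1. With the length and GC correction, the cytosolic median was -0.13, with 16 lower and 1 higher, and the mitochondrial ribosome's was -0.16, with 16 lower. With controls 2 and 3 as the only controls, 1 gene of each ribosome was called lower. The counts for the mitochondrial and the cytosolic ribosome were 9 and 12 without control 1, 6 and 15 without control 4, and 27 and 31 without control 2. Without knockout 4 the cytosolic count was 15. The 6 named proteins were called without any 1 library. The part of the fall in markers of dividing cells in these list values was not tested.

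**Figure D5:**
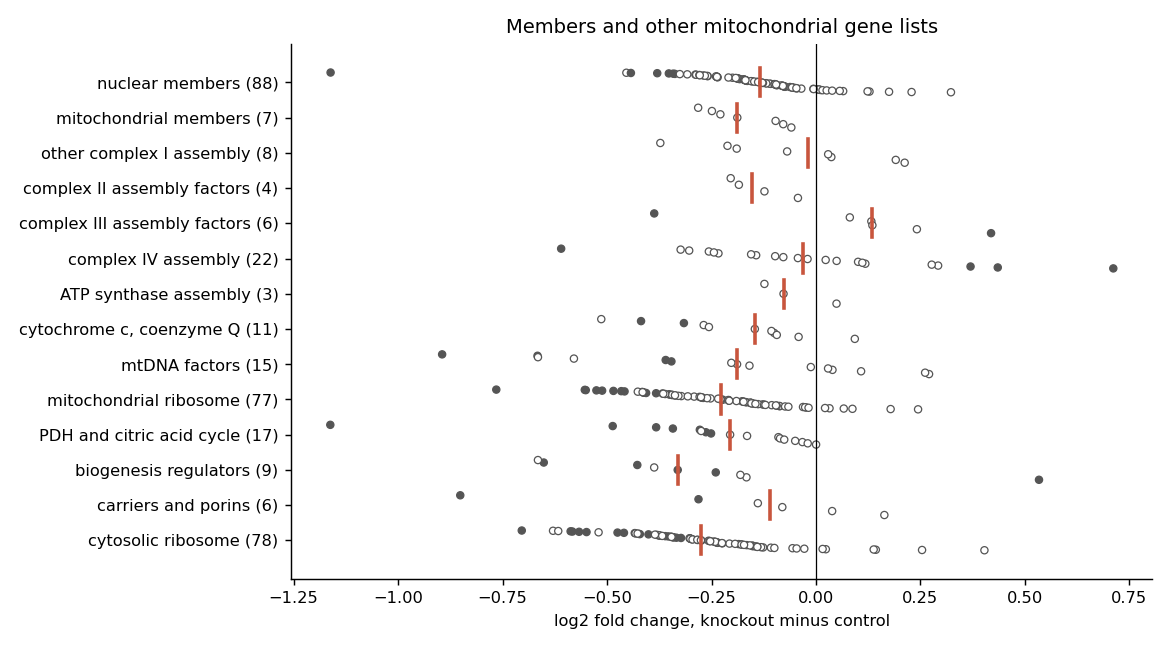
Log2 fold change, knockout minus control (horizontal axis), of tested nuclear and mitochondrially encoded members and of 12 other gene lists, with filled points for genes that passed, open points for those that did not, and a red line at each median (number tested in brackets). Filled points below 0 number 7 of 17 for pyruvate dehydrogenase and the citric acid cycle, 17 of 77 and 24 of 78 for the mitochondrial and cytosolic ribosome, and 7 of 95 for the members.

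Promoters of nuclear members were read for sites of factors that act on respiratory genes. RefSeq promoter sequences of build GRCm38.p6, from 250 bases before to 50 after the start, were matched for 76 of 94 nuclear members (81 promoters). The core of the NRF1 site (GCATGCGC), of the ETS site bound by GABPA (CCGGAAG) and of the YY1 site (AAGATGGCG) were searched on both strands; the 3 motifs differ and were counted separately. The NRF1 core occurred in 14.8% of member promoters and 3.51% of 21262 promoters of protein-coding genes, the ETS core in 22.2% and 11.6%, and the YY1 core in 9.88% and 1.83%. Over all 32851 promoters the shares were 2.71%, 8.86% and 1.40%. By motif, 31 tested members with any of the 3 had a median log2 fold change of -0.15 and 2 of them fell, and 42 without had a median of -0.13 and 4 fell. The upstream stretches below are those of the 2 fallen members with a motif, Ndufaf4 with 2 overlapping NRF1 cores on opposite strands (chr4:24897920-24898082, +) and Ndufb6 with an ETS core (chr4:40279597-40279671, -), and of Atp5j, a peripheral stalk subunit of complex V that did not pass and holds YY1 and ETS cores (chr16:84834981-84835114, -). Capitals mark the motifs. The Ndufaf4 promoter also holds another NRF1 core just after the start, outside the stretch shown.
Ndufaf4: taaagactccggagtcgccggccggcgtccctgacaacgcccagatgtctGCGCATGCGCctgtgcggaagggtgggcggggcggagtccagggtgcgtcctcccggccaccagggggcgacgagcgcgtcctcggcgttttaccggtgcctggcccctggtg
Ndufb6: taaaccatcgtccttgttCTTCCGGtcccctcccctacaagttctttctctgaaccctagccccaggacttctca
Atp5j: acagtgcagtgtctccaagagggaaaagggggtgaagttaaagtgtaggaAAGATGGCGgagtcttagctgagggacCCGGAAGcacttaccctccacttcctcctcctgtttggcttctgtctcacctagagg
A match is a description of letters in the window and not of binding.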

How the data were processed

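RNA from 4 control and 5 knockout libraries was measured by sequencing. The deposited table holds 1 signal per gene and library that is never negative: the authors divided read counts by 1 size factor per library, as the values themselves show, being whole multiples of 1 step within 0.01. The build was mm10 and the tools named were DESeq2, HTSeq 0.9.1, TopHat2 2.1.1 and R 3.4.0, per the submitters' processing notes. What each tool did, the annotation and the strand setting were not given in the sources used here. These normalized values, not raw counts, were tested on the log scale, and no count model was fitted. Symbols, positions and lengths came from GENCODE M21 on the same build (48058 of 48526 identifiers matched). Libraries of a group differed by at least 3.58 times sampling noise (chi-square per degree of freedom), so none was a duplicate.

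limma 3.58.1 (trend and robust, statmod 1.5.0, R 4.3.3) was fitted to log2(normalized count + 1) of 13780 genes with a mean of at least 10. The added 1 understates changes of low genes. Tests were two-sided and adjusted over all genes by Benjamini-Hochberg at 0.05. Log2 fold changes are knockout minus control. The step was tested on simulated data. Levels per kb divide by the median length of protein-coding transcripts. Shared windows were 50-base stretches found in transcripts of other annotated genes; tables were made with Python 3.11.15 and pandas 2.3.3.

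The members, lists, tests and alternatives were chosen with earlier results of these data known. Named were all 13 mitochondrially encoded members and, in each complex, up to 5 members per direction with the smallest p among those that passed. Tissue-restricted isoforms were named with their common counterparts, and from each other list up to 3 genes that passed with the smallest p. Ndufaf3 and Cox7a2l, outside this rule, are marked where named. Also outside it were Sdhb, Sdhc, Sdhd and Slc25a4, named as contrasts, and Sco1, Atp5j, Atp5g2 and Ndufb10. Alternatives were pseudocounts, filters, scalings, fits without trend or with library weights, a replicate block, leaving out each library, controls 2 and 3 alone, and a loess correction for length and GC.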

Additional observations from a re-analysis of the deposited data

Results flagged for a closer look

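In 3 of 46 groups of 4 or 5 libraries tested among the named members, 1 library lay farther from the rest than Dixon's 95% critical value allows, and chance gives about 1 in 20 such groups. For mt-Nd1 it was knockout 3, the highest knockout at 16209 normalized counts (gap over range 0.819). For Cyc1 it was knockout 4, the lowest at 684 (0.755), without which the adjusted p of limma was 0.109. For Cox6b2 it was knockout 1, the lowest at 10.9 (0.779), without which the call held.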

How the results depend on the processing

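The count of 7 lower members (7 nuclear, 0 mitochondrial) moved to 3 without trend and robust, 3 with library quality weights and 1 with controls 2 and 3 as the only controls. With the length and GC correction 4 were lower and 2 higher. All of these were nuclear. Without 1 library the count of lower members ranged from 2 (without control 1, control 4 or knockout 4) to 12 (without control 2), the nuclear count from 2 to 11 and the mitochondrial count from 0 to 1, with 3 without knockout 5. The count of higher members, all nuclear, ranged from 0 to 1 (Ndufaf3, without knockout 4). mt-Nd5 was the 1 mitochondrial member called lower with no filter on low values, with scaling on nuclear genes only, and without control 2 or 3. The median of mitochondrial members was 0.059 with controls 2 and 3 as the only controls and 0.116 with the length and GC correction; the nuclear median was 0.01 and -0.02 there, against a spread between libraries of 0.16. Calls over all genes fell to 1370 higher and 1108 lower with controls 2 and 3 alone, where fewer libraries were compared. The causes of the other moves were not tested.

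Libraries with the same number had deviations correlated between -0.12 and 0.14, which gave no clear sign of pairing. These values cannot exclude a shared origin of such libraries. With a replicate block, which drops knockout 5, the count was 2 lower members (Sdha and Cox6b2), both nuclear, and 1829 higher and 1681 lower genes in all; not every library correlated best with its own number. Depth limits members near 10 normalized counts, such as Atp5g2, whose 95% interval was -0.57 to 0.56. Sdha kept its call in all 21 alternatives and Cox6b2 in 19 of the 20 that tested it.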
